A study of Mus musculus with 6 samples.

Results

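The genes described here are 40 regulators and targets of the tumour suppressor p53 and components of the apoptosis machinery, given as a list of gene symbols, with no threshold on these arrays in the rule. A gene with several probe sets is given by the one whose signal, averaged over the 6 arrays, was highest. Of the 40, 37 had a probe set with a single gene symbol in the array annotation and 36 had enough signal to be tested, among 12741 genes tested in all. Trp53 itself, Gdf15 and Bax were not analysed here, and the death receptor gene Fas was below the filter on low signals.

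The platform was the Affymetrix Mouse Genome 430 2.0 array, on which sets of short oligonucleotide probes report the transcripts of a gene. Every sample came from the mouse embryonic stem cell line R1, given a lentivirus with a short hairpin RNA (shRNA) and then sorted for GFP. In the control group of 3 arrays the shRNA targeted luciferase, and in the other 3 arrays it was the hairpin named shRNA1, against KIAA1718, the protein of Kdm7a (also Jhdm1d), a histone H3 demethylase. A single shRNA sequence stood for the knockdown, and the labels do not say whether arrays of a group stem from separate cultures, so the p-values cover only the variation among these arrays, and that may be technical.

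p53 is a transcription factor that is held low by the ubiquitin ligase Mdm2 and its relative Mdm4 and that, when stabilised by DNA damage or other stress, switches on genes of cell cycle arrest, DNA repair, growth restraint and death. The intrinsic death pathway downstream is a balance inside the Bcl2 family: BH3-only proteins such as Puma, Noxa and Bim neutralise the survival proteins Bcl2, Bcl-xL and Mcl1, Bax and Bak then open the outer mitochondrial membrane, and released cytochrome c assembles Apaf1 and caspase precursors into the apoptosome. Embryonic stem cells carry abundant p53 and divide with a short G1 phase, and p53 activity in them is known to favour differentiation.

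The promoters of 6 members are shown because these genes carry the results below: Ccng1, Ddit4 and Bcl2l11 rose, Mdm2 and Cdkn1a are the classical readouts of p53, and Sesn1 is the p53 target with the largest downward difference. Trp53inp1, which also rose, had no promoter among those searched. Each sequence is the 250 bases before a RefSeq transcription start in GRCm38.p6, 5′ to 3′ on the gene's strand: chr11:40755287-40755536 on the minus strand for Ccng1, chr17:29090729-29090978 on the plus strand for Cdkn1a, chr10:117710759-117711008 on the minus strand for Mdm2, chr10:41887189-41887438 on the plus strand for the downstream of 2 starts of Sesn1, chr10:59951771-59952020 on the minus strand for Ddit4, and chr2:128125788-128126037 on the plus strand for the upstream of 2 starts of Bcl2l11. Capitals mark matches to the p53 decamer (the palindromic consensus that occurs in pairs at p53 sites), to the FOXO motif GTAAACA or its complement TGTTTAC, and to the hypoxia response core ACGTG or its complement CACGT.
Ccng1: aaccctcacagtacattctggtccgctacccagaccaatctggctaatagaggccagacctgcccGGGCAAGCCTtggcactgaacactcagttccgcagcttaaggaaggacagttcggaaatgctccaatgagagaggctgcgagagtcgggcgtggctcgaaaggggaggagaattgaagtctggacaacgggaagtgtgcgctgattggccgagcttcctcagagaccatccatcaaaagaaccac
Cdkn1a: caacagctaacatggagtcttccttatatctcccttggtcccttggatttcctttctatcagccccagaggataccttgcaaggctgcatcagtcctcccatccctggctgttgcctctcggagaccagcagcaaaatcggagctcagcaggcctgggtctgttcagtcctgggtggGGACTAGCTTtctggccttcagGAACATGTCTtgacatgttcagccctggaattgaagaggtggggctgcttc
Mdm2: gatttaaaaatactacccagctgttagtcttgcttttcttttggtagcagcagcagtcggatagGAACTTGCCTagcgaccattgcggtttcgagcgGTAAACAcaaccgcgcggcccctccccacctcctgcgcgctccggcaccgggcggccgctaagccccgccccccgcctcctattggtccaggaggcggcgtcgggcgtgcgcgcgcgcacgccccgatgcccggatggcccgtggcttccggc
Sesn1: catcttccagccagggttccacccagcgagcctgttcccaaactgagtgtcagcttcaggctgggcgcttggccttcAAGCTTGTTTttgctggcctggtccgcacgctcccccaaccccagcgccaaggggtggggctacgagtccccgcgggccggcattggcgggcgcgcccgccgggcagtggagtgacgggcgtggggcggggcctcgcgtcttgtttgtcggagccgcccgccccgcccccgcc
Ddit4: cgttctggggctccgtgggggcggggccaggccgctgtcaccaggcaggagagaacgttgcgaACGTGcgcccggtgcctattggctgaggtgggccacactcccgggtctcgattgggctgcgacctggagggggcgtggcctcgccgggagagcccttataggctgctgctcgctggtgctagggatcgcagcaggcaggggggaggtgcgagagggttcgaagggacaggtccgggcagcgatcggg
Bcl2l11: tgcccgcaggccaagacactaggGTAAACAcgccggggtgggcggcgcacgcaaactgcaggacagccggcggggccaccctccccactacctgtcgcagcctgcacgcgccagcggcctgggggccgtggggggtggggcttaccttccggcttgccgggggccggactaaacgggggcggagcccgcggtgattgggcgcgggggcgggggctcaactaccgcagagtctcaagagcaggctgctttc

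The capitals in Ccng1 and Sesn1 are a p53 decamer, Cdkn1a has 2 of them, Mdm2 has a decamer followed by a FOXO motif, Ddit4 has a hypoxia response core and Bcl2l11 a FOXO motif. The other start of Sesn1 and that of Bcl2l11 had no match to any of these motifs. Over all 32851 RefSeq promoter windows of this length, 7.13% held the decamer, 3.17% the FOXO motif and 16.6% the hypoxia core. Of 16 p53 regulators and targets with a promoter in the table, 9 (56.2%, against 8.2% of all genes in the table) held the decamer (Trp53, Mdm2, Ppm1d, Cdkn1a, Ccng1, Gadd45a, Sesn1, Aen and Ei24), against 1 of 17 genes of the death receptors, Bcl2 family and caspases, which was Bax. The 8 of these 9 that were measured differed in direction, from 0.34 (log2) for Ccng1 to -0.57 for Sesn1. The hypoxia core was in 10 of 33 members with a promoter (30.3%, against 18.5% of all genes), and of those tested only Ddit4 rose. The FOXO motif was in 3 (9.09%, against 3.54% of all genes), Mdm2, Bbc3 and Bcl2l11, of which only Bcl2l11 rose. A match describes the letters in this window and is not a measured binding site.

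Arrays were alike over the tested probe sets, with correlations of 0.983 to 0.988 within groups and 0.976 to 0.985 between groups. Median deposited signals ran from 9.59 to 13.3, so the arrays were brought to a common scale by quantile normalization, and every signal below is a normalised linear signal. The target gene Kdm7a had a signal of 38.2 ± 1.12 in controls and 31.8 ± 9.69 with KIAA1718 shRNA1 (SD, n = 3). The change of -0.20 on the log2 scale had 95% bounds of -0.54 and 0.13 (limma adjusted p = 0.533), and the gene gives no check of the labels. All 12 markers of embryonic stem cells were measured, with signals of at least 191 on every array, and their mean was 9.95 (log2) in controls and 9.74 with KIAA1718 shRNA1, with every KIAA1718 array (9.68 to 9.79) below every control (9.92 to 9.97). The difference of -0.21 had a two-sided exact permutation p of 0.1, the smallest possible for 3 against 3. Of these markers 11 lay below 0, and 2, Fgf4 and Utf1, fell (limma; 16.7%, against 2.19% of all genes). Nanog was a further one under the replicate block (limma adjusted p = 0.0495, against 0.158 without it), where 25% of the markers fell, against 3.78% of all genes. The part of this shift in the members' differences was not tested. Markers of fibroblasts, which are often used as feeder cells and which a sort for GFP should remove where they lack the virus, were detected as well: 16 of the 17 tested lay below 0 and 1 above it, and their summed signal was 4710 to 8599 in controls and 4363 to 5839 with KIAA1718 shRNA1. In bulk RNA, fewer cells of a type and less RNA per cell cannot be told apart.

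Of the 36 members tested, 4 rose with KIAA1718 shRNA1, none fell and 32 did not pass the threshold of an adjusted p of 0.05 (limma, two-sided, Benjamini-Hochberg adjustment over all probe sets). Trp53inp1, a stress-induced partner of p53, Ddit4 (Redd1), an inhibitor of mTORC1, and Ccng1 (cyclin G1), which feeds back on Mdm2, rose among the p53 targets. Bcl2l11, which encodes the BH3-only protein Bim, rose in the Bcl2 family. The called members make up 11.1% of those tested, while 4.87% of all genes were called, 2.68% higher and 2.19% lower. The members were chosen with earlier results of these data known, so their shares, here and below, are not an unbiased measure of an excess. The median difference of the members was -0.00237 (log2), against 0.00114 over all genes, with 17 members above 0 and 19 below it. At an unadjusted p under 0.05, 6 members were higher and 6 lower, each 16.7%, against 11.3% and 10.7% of all genes. Groups did not overlap for 7 members on the higher side and for 10 on the lower side, which is 19.4% and 27.8% of members against 14.5% and 13.4% of all genes. With replicate number as a block, 7 members were called, the same 4 higher and Mdm4, Sesn1 and Bcl2l2 lower (19.4%). The block called 7.85% of all genes, 4.07% higher and 3.78% lower. The count was 2 without luciferase replicates 2 or 3 or KIAA1718 replicates 2 or 3, Bcl2l11 and Trp53inp1 remaining each time, and 3 without luciferase replicate 1 or KIAA1718 replicate 1.

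**Figure D1:**
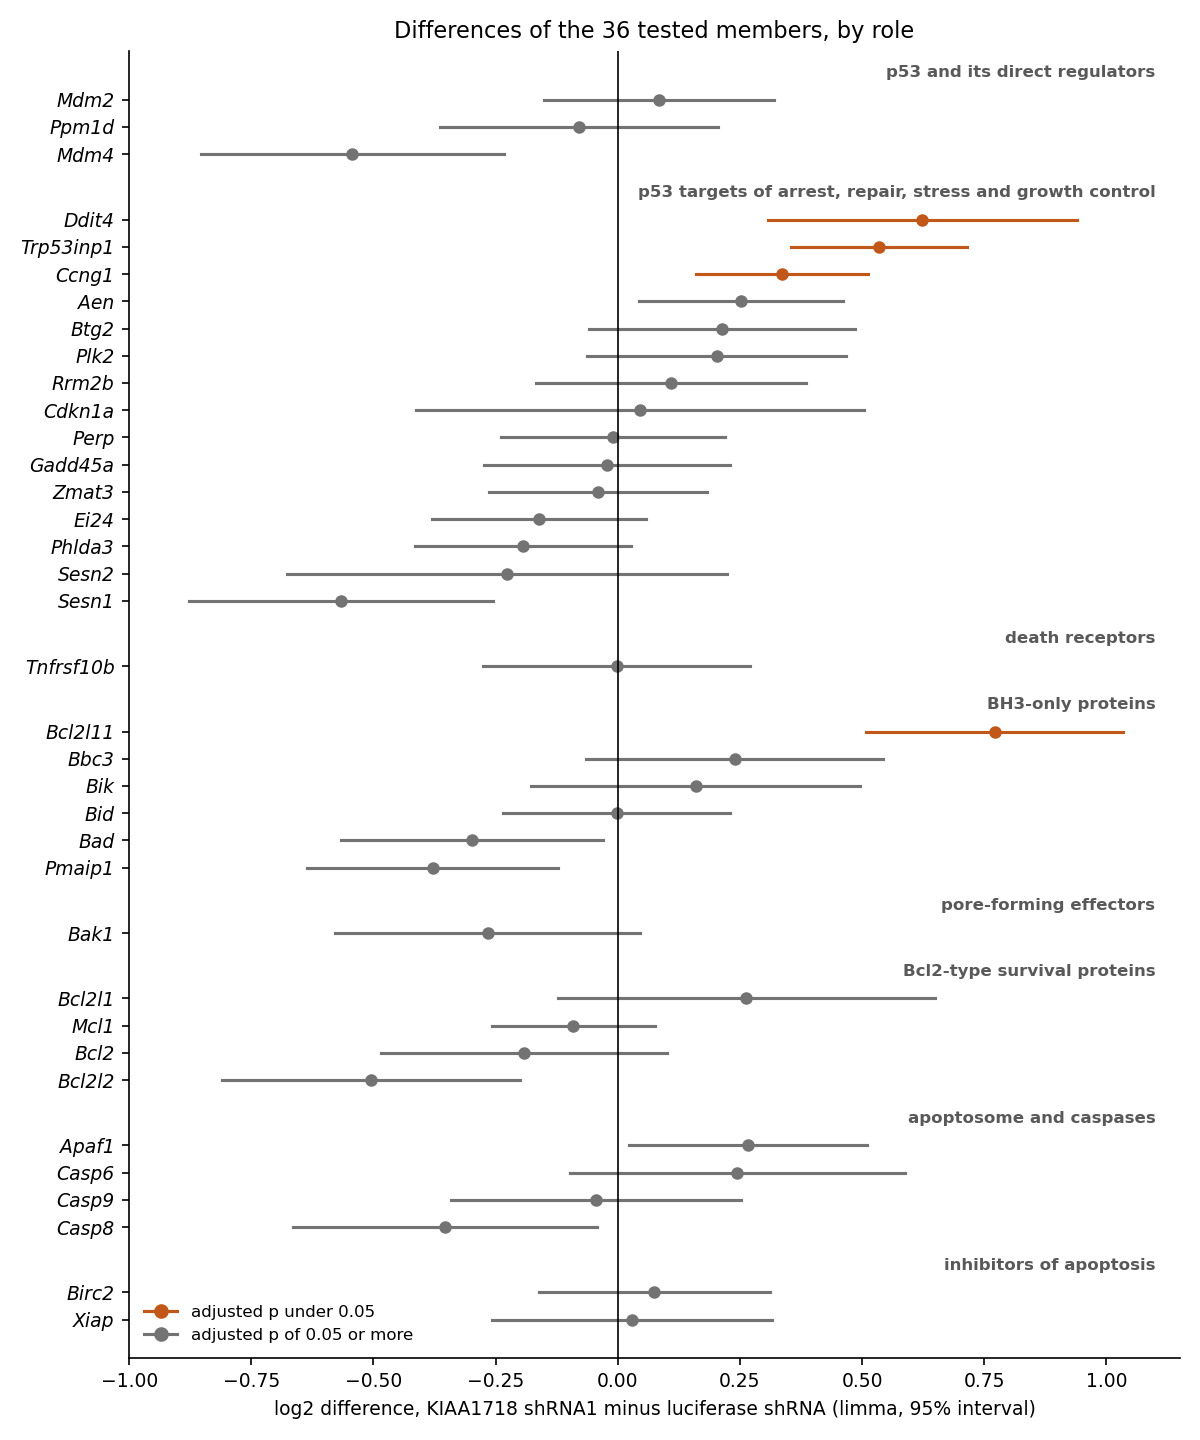
Log2 differences of the 36 tested members (KIAA1718 shRNA1 minus luciferase shRNA, points) with 95% intervals from limma (lines), grouped by role and ordered by size within a role. The 4 coloured members passed the threshold and lie above 0, while Sesn1, Mdm4 and Bcl2l2 lie furthest below 0 without passing it.

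Among the direct regulators of p53, none of the 3 measured genes passed. Mdm2, the ubiquitin ligase that is itself a p53 target, had signals of 404, 419 and 450.0 on luciferase replicates 1, 2 and 3 and of 436, 404 and 521 on KIAA1718 replicates 1, 2 and 3. The groups overlapped, and the difference of 0.08 had a 95% interval of -0.15 to 0.32 (limma adjusted p = 0.732). Mdm4, which binds p53 and blocks its activation domain, had signals of 119, 153 and 139 in controls and of 79.6, 80.4 and 108 with KIAA1718 shRNA1. Every KIAA1718 array was below every control array, but the difference of -0.54 ± 0.14 (SE) did not pass (limma adjusted p = 0.0589) and did so with replicate number as a block (limma adjusted p = 0.0310). The 3 dimmer probe sets of Mdm4 differed by -0.20, 0.23 and 0.27, none of them called, so the probe sets of this gene disagree in direction, and their mean differed by -0.06. The phosphatase gene Ppm1d (Wip1), which switches off p53 signalling after damage, differed by -0.08 with an interval of -0.36 to 0.21.

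Of 15 measured p53 targets of arrest, repair, stress and growth control, 3 rose (20%, against 2.68% of all genes) and 12 did not pass. Trp53inp1 had signals of 614, 605 and 599 in controls and of 922, 812 and 927 with KIAA1718 shRNA1. The control arrays lay within a narrow range and all 3 KIAA1718 arrays were above it, a 1.45-fold difference (log2 0.54 ± 0.08, SE, limma adjusted p = 0.00571). Its dimmer probe set differed by 0.51 with a wide interval of -0.05 to 1.06 (limma adjusted p = 0.308).

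Ddit4, whose product restrains mTORC1 under hypoxia, energy stress and DNA damage, had signals of 284, 265 and 232 in controls and of 525, 364 and 356 with KIAA1718 shRNA1. The groups did not overlap, KIAA1718 replicate 1 stood highest, and the difference was 1.54-fold (log2 0.62 ± 0.14, SE, limma adjusted p = 0.0399). Without that array the difference was 0.45 (limma adjusted p = 0.0892), and the call was also lost without luciferase replicates 2 or 3 or KIAA1718 replicates 2 or 3 (limma adjusted p of 0.0571 to 0.166).

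Ccng1, a p53 target whose product brings protein phosphatase 2A to Mdm2, had signals of 1119, 1319.5 and 1312 in controls and of 1481, 1623 and 1634 with KIAA1718 shRNA1. The groups did not overlap, and the difference was 1.26-fold (log2 0.34 ± 0.08, SE, limma adjusted p = 0.0434). Its 2 further probe sets, at 0.43 (limma adjusted p = 0.00967) and 0.40 (limma adjusted p = 0.0424), were also higher with groups that did not overlap. The brightest probe set lost its call when any array was left out (limma adjusted p of 0.0559 to 0.146).

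**Figure D2:**
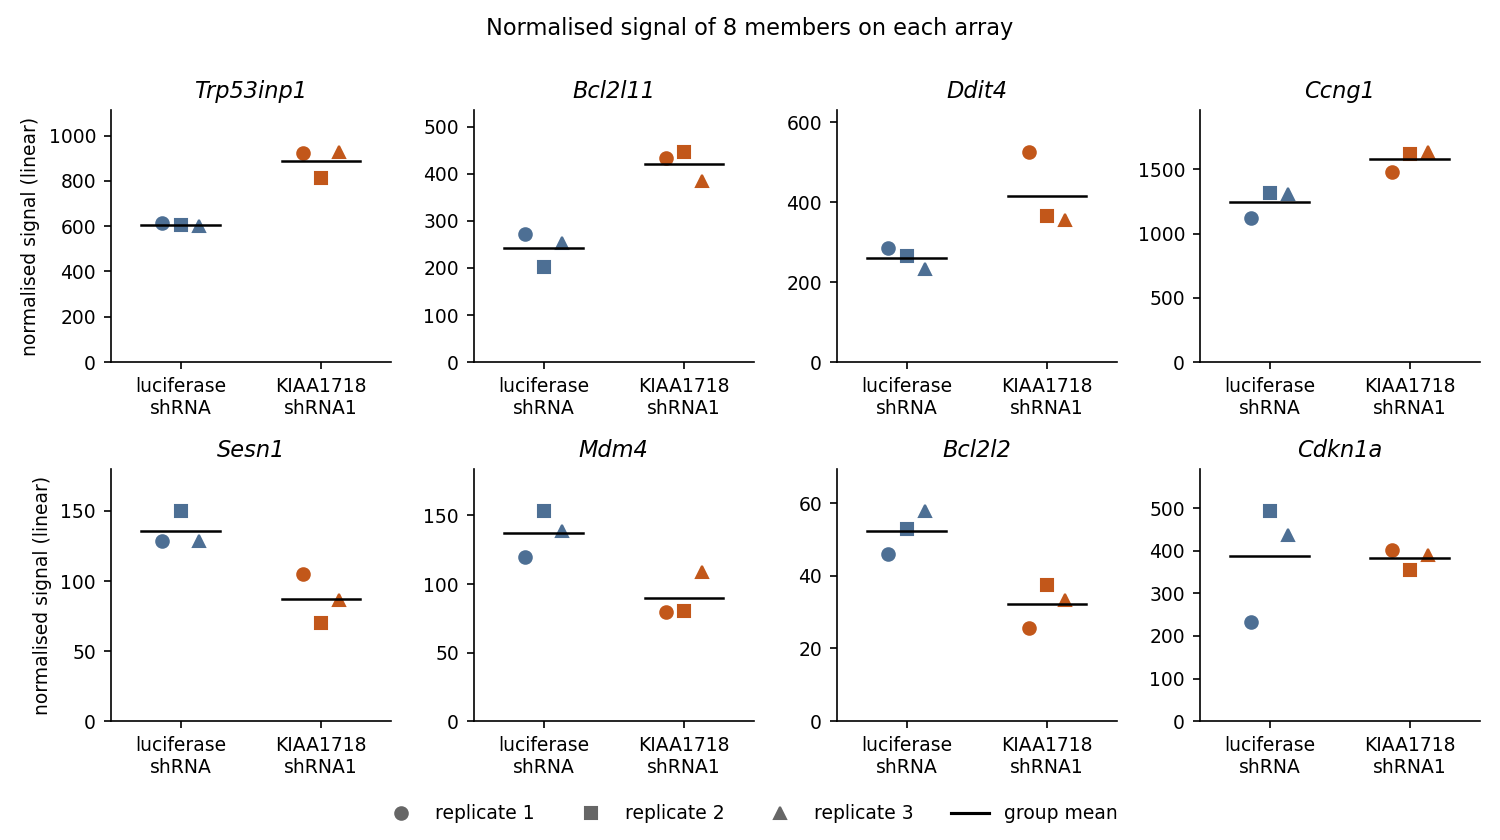
Normalised linear signal of 8 members on each array (points, shaped by replicate number) with the group mean (line), luciferase shRNA on the left and KIAA1718 shRNA1 on the right of each panel, each vertical axis starting at 0. Groups separate in the first 7 panels, and in Cdkn1a luciferase replicate 1 stands apart at 232.

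Cdkn1a, which encodes the cyclin-dependent kinase inhibitor p21 and is the most used readout of p53 activity, showed no such separation. Its signals were 232, 493 and 437 in controls and 401, 354 and 391 with KIAA1718 shRNA1. The 3 KIAA1718 arrays fell inside the range of the controls, and the difference was 0.04 with an interval of -0.41 to 0.50 (limma adjusted p = 0.937), and -0.27 (limma adjusted p = 0.237) without luciferase replicate 1.

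Sestrins restrain mTORC1 in response to stress and low leucine, and neither of the 2 sestrin genes among the members passed. Sesn1 had signals of 128, 149.7 and 129 in controls and of 105, 69.8 and 86.6 with KIAA1718 shRNA1. All KIAA1718 arrays were below all controls, and the difference of -0.57 ± 0.14 (SE) just missed the threshold (limma adjusted p = 0.0516) and passed with the replicate block (limma adjusted p = 0.0372). Its second-brightest probe set differed by -0.40 (limma adjusted p = 0.158), and the next one, with a mean signal of 91.5 in controls and 37.4 with KIAA1718 shRNA1, by -1.01 with an interval of -1.28 to -0.74 (limma adjusted p = 0.00179). Averaging the probe sets of Sesn1 gave -0.66 (limma adjusted p = 0.00229). Sesn2, which is induced by several stresses besides p53, differed by -0.23 with overlapping groups and an interval of -0.68 to 0.22.

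The remaining p53 targets of arrest, repair, stress and growth control did not pass and lay between -0.19 and 0.25. The nuclease gene Aen differed by 0.25 (interval 0.04 to 0.46) and the antiproliferative gene Btg2 by 0.21, both with every KIAA1718 array above every control, and the further probe set of Btg2 differed by 0.51 (limma adjusted p = 0.182). The kinase gene Plk2 differed by 0.20 and the ribonucleotide reductase subunit gene Rrm2b, which supplies nucleotides for repair, by 0.11. Phlda3, a repressor of Akt, and Ei24 were at -0.19 and -0.16 with every KIAA1718 array below every control. The desmosome gene Perp (-0.01), the growth arrest gene Gadd45a (-0.02) and the RNA-binding protein gene Zmat3 (-0.04) had intervals of -0.27 to 0.23 or narrower.

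Of the death receptors, Tnfrsf10b, the receptor for Trail, had a low signal of 13.8 ± 1.00 in controls and 13.8 ± 1.37 with KIAA1718 shRNA1 (SD, n = 3), and Fas ran from 2.55 to 9.01 over all arrays. Among the 6 BH3-only genes, which sense damage and neutralise survival proteins, 1 rose (16.7%, against 2.68% of all genes) and 5 did not pass. Bcl2l11 had signals of 272, 202 and 252 in controls and of 435, 446 and 385 with KIAA1718 shRNA1. The lowest KIAA1718 array stood well above the highest control, and the difference was 1.71-fold (log2 0.77 ± 0.12, SE, limma adjusted p = 0.00623). All 5 probe sets of Bcl2l11 were above 0, the 4 dimmer ones at 0.48, 0.22, 0.24 and 0.12 without passing (the first of these passed with the replicate block, limma adjusted p = 0.0395), and the mean over probe sets differed by 0.37 (limma adjusted p = 0.0415).

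The other BH3-only genes spread to either side of 0. Pmaip1 (Noxa), a p53 target that binds Mcl1, had signals of 143, 126 and 145 in controls and of 98.1, 97.0 and 112 with KIAA1718 shRNA1. The groups did not overlap, but the difference of -0.38 ± 0.12 (SE) did not pass (limma adjusted p = 0.103). Bbc3 (Puma), also a p53 target, differed by 0.24 with an interval of -0.06 to 0.54. Bad, which is controlled by phosphorylation downstream of growth factors, differed by -0.30 (interval -0.57 to -0.03, limma adjusted p = 0.214), Bik by 0.16 and Bid, which links death receptors to mitochondria, by -0.00226 with an interval of -0.24 to 0.23. Of the pore-forming effectors only Bak1 was measured, at -0.27 with an interval of -0.58 to 0.05.

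None of the 4 survival genes passed. Bcl2l2, which encodes Bcl-w, had signals of 46.0, 52.9 and 57.7 in controls and of 25.7, 37.6 and 33.3 with KIAA1718 shRNA1. The groups did not overlap, and the difference was -0.50 ± 0.14 (SE, limma adjusted p = 0.0717), past the threshold once the replicate block was added (limma adjusted p = 0.0395). Mcl1, which protects embryonic and many other cells, had a signal of 2097 ± 222 in controls and 1959 ± 26.0 with KIAA1718 shRNA1 (SD, n = 3), and its 6 probe sets lay between -0.25 and 0.06, none of them called. Bcl2, the founding survival gene, had low signals of 5.22 to 11.2 and differed by -0.19, while its further tested probe set differed by 0.26 with groups apart the other way, neither of them called. Bcl2l1, which encodes Bcl-xL, differed by 0.26 with control signals of 124, 168 and 87.9, and its 2 dimmer tested probe sets by -0.32 and -0.13, so that its probe sets disagree in direction.

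**Figure D3:**
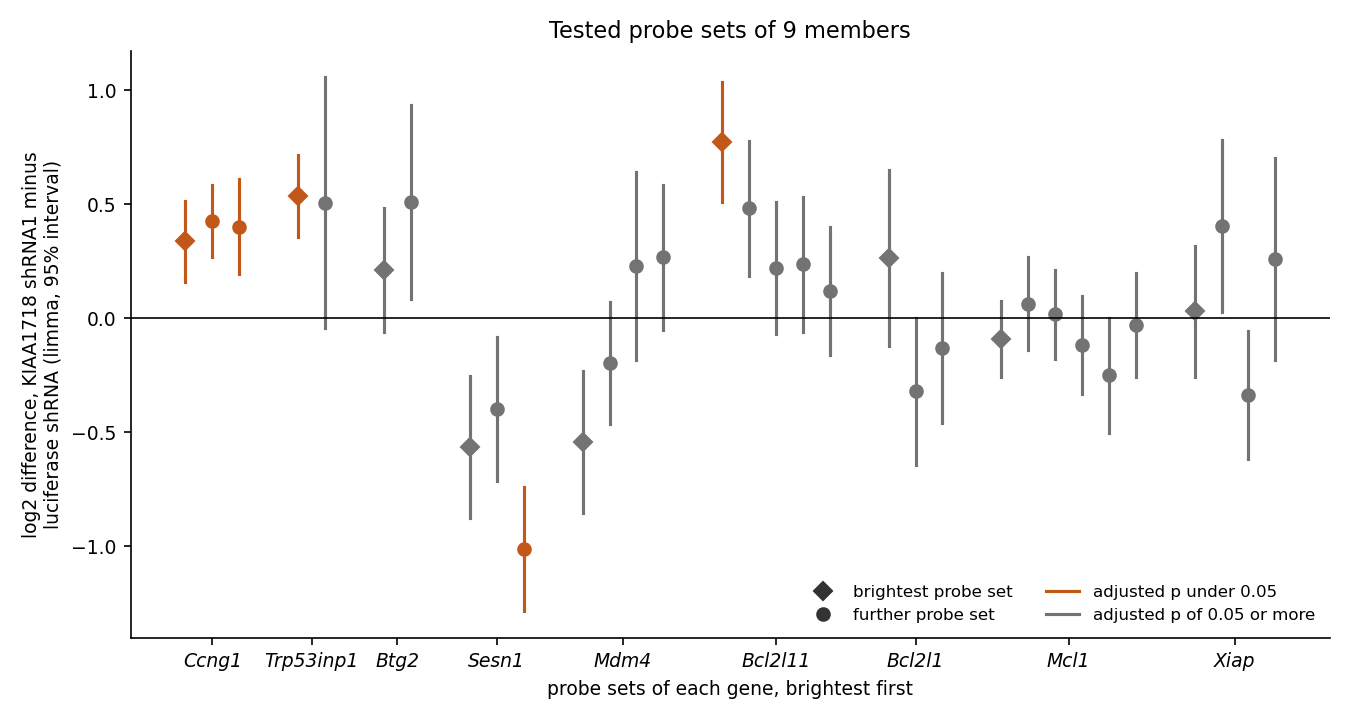
Log2 differences (KIAA1718 shRNA1 minus luciferase shRNA) with 95% intervals from limma for each tested probe set of 9 members, ordered by mean signal within a gene, the brightest as a diamond. All probe sets of Ccng1 passed above 0 and the third of Sesn1 passed below 0, whereas those of Mdm4, Bcl2l1 and Xiap lie on either side of 0.

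In the apoptosome and caspase group none of 4 genes passed. Apaf1, the scaffold of the apoptosome and a p53 target, differed by 0.27 with every KIAA1718 array above every control (interval 0.02 to 0.51, limma adjusted p = 0.221), and Casp9, the caspase it activates, by -0.04. Casp8, the initiator caspase of death receptors, was at -0.35 with every KIAA1718 array below every control (limma adjusted p = 0.206), and the executioner gene Casp6 at 0.24. The caspase inhibitor Xiap differed by 0.03 at its brightest probe set, and its further tested ones by 0.40, -0.34 and 0.26 without passing, while Birc2 (cIAP1) differed by 0.07 with an interval of -0.16 to 0.31.

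Over all 22 members with a further tested probe set, 28 of 41 further probe sets lay on the same side of 0 as the brightest one, and 3 passed, of Ccng1 (2) and Sesn1 (1). The same shares over the further probe sets of all genes were not computed, so these counts show no excess or lack. Set side by side, 3 of 18 p53 regulators and targets rose (16.7%) with a median of 0.0176, and 1 of 18 genes of the death receptors, Bcl2 family and caspases rose (5.56%) with a median of -0.00237. Over all genes 2.68% rose, with a median of 0.00114. The second group also holds p53 targets, among them Pmaip1, Bbc3 and Apaf1, so this split does not set p53 targets apart from all other genes. The 2 shares rest on few genes, and a difference between them was not tested. The spreads of these 2 groups of members were alike, from -0.57 to 0.62 and from -0.50 to 0.77. The 4 genes that rose lie on chromosomes 2 (Bcl2l11), 4 (Trp53inp1), 10 (Ddit4) and 11 (Ccng1).

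Among 52 other p53 pathway genes, 49 had a probe set and 48 were tested, of which 3 rose, 2 fell and 43 did not pass. Trp53bp1 (53BP1), a scaffold at DNA breaks, rose from 374 ± 39.8 to 555 ± 22.8 (SD, n = 3, limma adjusted p = 0.0123), but the mean over its probe sets differed by 0.20 (limma adjusted p = 0.207). Setd7, a methyltransferase of p53 and other proteins, rose from 62.7 ± 4.72 to 99.5 ± 9.46 and the third sestrin gene, Sesn3, from 42.3 ± 5.68 to 69.4 ± 3.99 (SD, n = 3). Cop1, a ubiquitin ligase that targets p53, fell from 796 ± 62.3 to 580.4 ± 54.6, and Pml, the organiser of nuclear bodies where p53 is modified, from 292 ± 14.3 to 210.4 ± 22.6 (SD, n = 3). The call of Pml (limma adjusted p = 0.0471) was lost with the mean over its probe sets. Its differences under the alternative settings ran from -0.51 to -0.11. The median of the list was -0.02, and 10.4% of it was called, against 4.87% of all genes. This list too was chosen with earlier results of these data known, so its share is not an unbiased measure.

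Of 48 other apoptosis genes, 43 had a probe set and 37 were tested, and 1 rose, 1 fell and 35 did not pass. Birc3 (cIAP2), a relative of Birc2 in death receptor complexes, rose from 24.6 ± 1.82 to 43.4 ± 3.65 (SD, n = 3), with an adjusted p of 0.0352 (limma). Parp1, a sensor of DNA breaks that caspases cleave, went down from 1115 ± 21.0 to 878 ± 78.9 (SD, n = 3), with an adjusted p of 0.0421 (limma). The median of the list was 0.02, and 5.41% of it was called, against 4.87% of all genes, with the same limit from how the list was chosen. Of 15 alternative settings, the call was lost in 8 for Birc3, 8 for Parp1, 8 for Sesn3, 6 for Setd7, 7 for Cop1, 12 for Pml and 3 for Trp53bp1.

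The fibroblast markers overlapped in level between the groups, although each KIAA1718 array was below the luciferase array of the same replicate number. Their mean over 17 genes was 7.32, 8.19 and 8.16 (log2) on luciferase replicates 1, 2 and 3 and 7.14, 7.49 and 7.57 on KIAA1718 replicates 1, 2 and 3, a difference of -0.49 (two-sided exact permutation p = 0.3, where 0.1 is the smallest possible for 3 against 3). None of the 17 passed (limma), while 7 were lower at an unadjusted p under 0.05 (41.2%, against 10.7% of all genes). Adding the replicate block to the fit called 9 of the 17 lower (52.9%, against 3.78% of all genes). Luciferase replicate 1 had a marker level between those of KIAA1718 replicates 1 and 2. On that array Trp53inp1 (614), Bcl2l11 (272) and Ddit4 (284) had their highest control signal and Sesn1 (128), Mdm4 (119) and Bcl2l2 (46.0) their lowest, which in each case is the control nearest to the KIAA1718 arrays. Ccng1 (1119) and Cdkn1a (232) were also at their lowest control signal there, which for Ccng1 is the control furthest from the KIAA1718 arrays. For Pmaip1 the control nearest to the KIAA1718 arrays was luciferase replicate 2 (126), not replicate 1 (143). Sesn1 on luciferase replicate 3 (129) and Trp53inp1 on luciferase replicate 2 (605) were close to their signals on replicate 1. The part of the fibroblast signal in the members' differences was not tested.

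**Figure D4:**
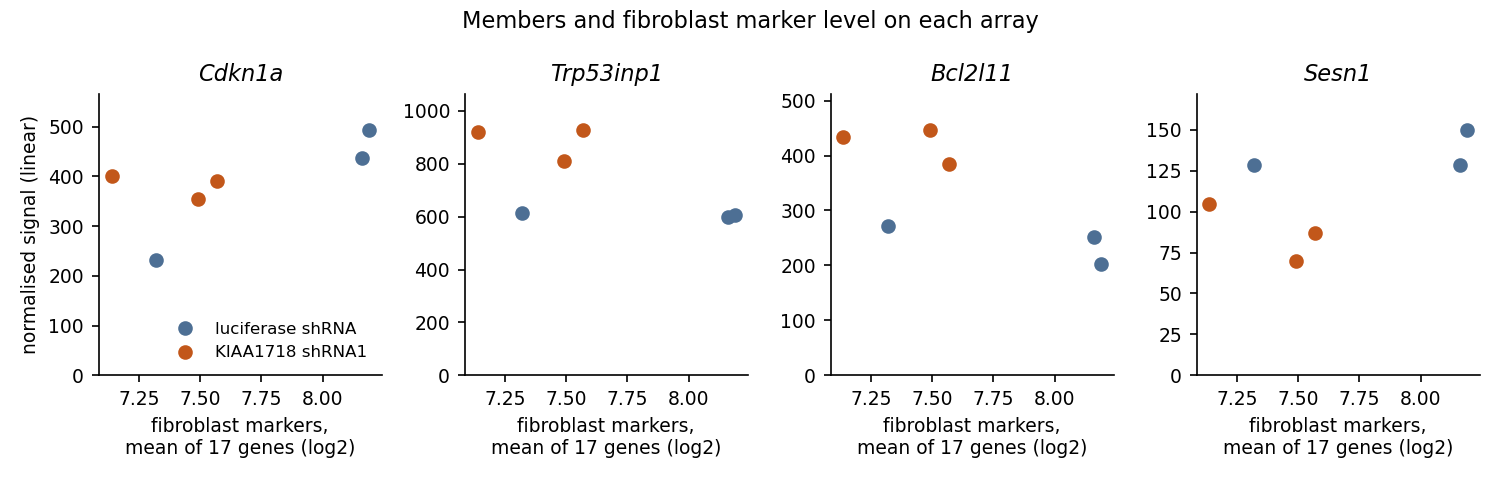
Normalised linear signal of Cdkn1a, Trp53inp1, Bcl2l11 and Sesn1 (vertical axes from 0) against the mean log2 level of 17 fibroblast markers (horizontal axes), 1 point for each array, coloured by group. Luciferase replicate 1, at a marker level of 7.32, lies among the KIAA1718 arrays (7.14 to 7.57) on the horizontal axes, with signals of 232 for Cdkn1a, 614 for Trp53inp1, 272 for Bcl2l11 and 128 for Sesn1.

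The call of Bcl2l11 held in 15 of 15 alternative settings, with differences of 0.37 to 0.91, and that of Trp53inp1 in 14 of 15, with 0.50 to 0.66. Ddit4 kept its call in 8 of 15 (0.45 to 0.76) and Ccng1 in 4 of 15 (0.26 to 0.44). Sesn1, which did not pass in the reported setting, passed in 6 of 15 (-0.69 to -0.41), Mdm4 and Bcl2l2 in 2 of 15 each, and Pmaip1 in 1 of 15. For Pmaip1 that setting was the mean of all probe sets of a gene, under which Bcl2l2 passed as well. Both genes had 1 tested probe set, so nothing was averaged for them and only the features fitted beside them differed. The other 28 members passed in none of the settings in which they were tested.

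**Figure D5:**
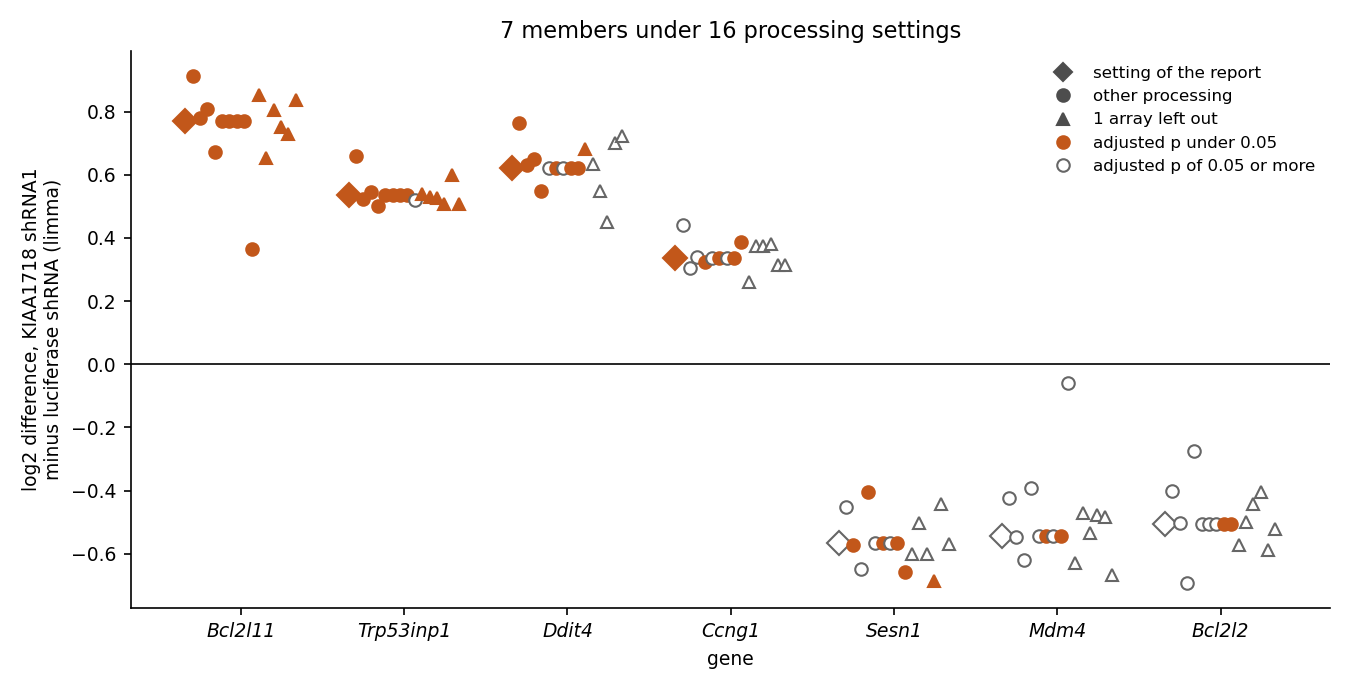
Log2 differences (KIAA1718 shRNA1 minus luciferase shRNA, limma) of 7 members under the reported setting (diamond) and 15 alternatives (circles for other processing, triangles for 1 array left out), filled where the adjusted p was under 0.05. Bcl2l11 is filled throughout, Trp53inp1 in all but 1 alternative, and the 3 genes below 0 are mostly open.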

How the data were processed

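Members and gene lists were chosen with earlier results of these data known. The authors deposited a linear signal intensity for each of 45101 probe sets; per the submitters' processing notes they used GCOS, whose settings and scaling the sources used here do not give. The 64 control probe sets were left out, signals were quantile-normalized, a pseudocount of 16 was added before log2 (differences of low genes are therefore understated), and 27023 probe sets remained after the dimmest 40% were dropped. Groups were compared with limma 3.58.1 in R 4.3.3 (lmFit, eBayes with intensity trend). On simulated data, with changes placed in brighter probe sets, it recovered 35.8% of changes of 0.5 (log2) and 98.4% of changes of 1. Of 164 calls there, 13 were false. In that simulation a true change of 0.5 was thus missed more often than found. The data gave 620 called genes, and the adjusted p depends on how many probe sets change. The simulated shares are therefore not the recovery in this comparison. Symbols came from the array annotation, updated through the Entrez number with RefSeq GRCm38.p6: of 45037 probe sets, 34945 had 1 symbol, 932 several and 9160 are unnamed here. No depth exists for arrays, and their number limits the precision. Signals of different probe sets are not comparable as levels.

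Members past the threshold, Mdm2 and Cdkn1a were named array by array, the others by role, and in the other lists the genes past the threshold; Mdm4, Sesn1, Bcl2l2 and Pmaip1 were given array by array after their values were seen. Replicate numbers, shared by both groups in the sample titles, were checked as pairs: arrays of equal number deviated together from their groups (correlations of 0.202, 0.124 and 0.129, each above 0.1), those of different number less (-0.150 to 0.0246). Deviations were taken from each group's own mean, which ties these correlations to one another, so the lower ones add no separate support. The pairing rests on the data. The fit leaves it out, and values with the block are given where they change a call. At least 45100 probe sets differed between any 2 arrays. Alternatives were no scaling or trimmed-mean scaling, pseudocounts of 1 and 64, no filter or 60% left out, no intensity trend, the replicate block, the mean of all probe sets of a gene, and each array left out.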

Additional observations from a re-analysis of the deposited data

How the results depend on the processing

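The main counts were 620 changed genes (341 higher, 279 lower), 4 members, 5 other p53 pathway genes and 2 other apoptosis genes. With no scaling between arrays, which moved the median of all genes to 0.11 (log2), they were 367 (298 higher, 69 lower), 3, 1 and 0; with no filter on low signals 197, 2, 1 and 0; and with no intensity trend 388, 2, 3 and 1. With replicate number as a block they were 1000, 7, 5 and 2, and with the mean of all probe sets of a gene 944, 6, 4 and 2. Leaving out 1 array gave 161 to 527 genes, 2 to 3 members, 0 to 3 other p53 pathway genes and 0 to 1 other apoptosis genes. By array left out, the counts of genes were 527, 291 and 161 (luciferase replicates 1, 2 and 3) and 394, 314 and 202 (KIAA1718 replicates 1, 2 and 3). The cause of these shifts was not tested. Among the members and both lists of other genes, at the brightest probe set, the block changed the calls of Mdm4, Sesn1 and Bcl2l2 and no other.

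No called difference changed sign. Uncalled ones did so unscaled (Ppm1d 0.0492, Gadd45a 0.120, Zmat3 0.0960, Perp 0.134, Tnfrsf10b 0.0785, Bid 0.145, Mcl1 0.0114, Casp9 0.0632), with trimmed-mean scaling (Perp 0.00236, Tnfrsf10b 0.0174, Bid 0.0132) and with the mean of all probe sets (Tnfrsf10b 0.0276, Bid 0.0156, Bik -0.0296, Bcl2 0.0329, Bcl2l1 -0.0626). Without 1 array Cdkn1a ran from -0.270 to 0.244, Gadd45a from -0.0890 to 0.0590, Bid from -0.0560 to 0.0628, Zmat3 from -0.0848 to 0.0430, Tnfrsf10b from -0.0391 to 0.0246, Casp9 from -0.117 to 0.0320, Perp from -0.0630 to 0.0481, Xiap from -0.0906 to 0.179 and Mdm2 from -0.0156 to 0.162. Differences near the threshold and genes at low signal (Tnfrsf10b, Bcl2, Bik, Casp9) are limited by 3 arrays a group and by signal over background, which no detection call here describes.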
